A study of Mus musculus with 24 samples.

Results

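The 9 genes described here encode protein-digesting enzymes of the exocrine pancreas and the inhibitor that restrains the first of them. They are the trypsinogen gene Prss2, the chymotrypsinogen genes Ctrb1, Ctrl and Ctrc, the elastase genes Cela1 and Cela2a, the procarboxypeptidase genes Cpa1 and Cpb1, and the trypsin inhibitor gene Spink1. They were chosen by name, not by value: every noncontrol probe whose annotation carried one of these symbols, its RefSeq transcript or an older symbol was taken. This gave 10 probes for 9 of the 18085 genes tested, and all 9 genes passed the filter on dim probes.

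The samples were islets of single female mice of NOD/LtJ, an inbred strain prone to autoimmune diabetes. There were 6 mice of each age, and the ages were 10 days, then 4, 12 and 20 weeks. Each mouse (Cy5 dye) shared an array with a pool of islets from 6 female NOD.B10Sn-H2b/J mice (Cy3 dye) of its own age, a strain that carries the H2b haplotype of the major histocompatibility complex on the NOD background. All islets came from collagenase digestion of the pancreas, the labels name no treatment in either strain, and 300 ng of RNA was labelled. Each pool counts as 1 control sample, so a test of the ratio measures the spread between NOD mice and leaves out that of the controls. The dyes were never swapped, so a probe's dye effect stays in the ratio of an age and drops out between ages.

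Acinar cells make these proteins as inactive zymogens, package them in granules and release them into the duct when a meal is sensed. In the gut, enteropeptidase cuts trypsinogen to trypsin, and trypsin then activates the chymotrypsinogens, proelastases and procarboxypeptidases. Spink1 is made by the same acinar cells and blocks trypsin that becomes active too early. Islets lie within acinar tissue, and in these bulk samples fewer or more acinar cells and less or more RNA per acinar cell cannot be told apart.

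In the NOD channel 42.3% to 64.6% of probes were well above background on an array, and 39.4% to 60.4% were in that of the pool. Islet markers were detected: at each age at least 9 of 10 beta cell markers and all 8 markers of other endocrine cells were well above background in every NOD sample and in the pool on every array. So were all 17 measured genes for lipases, amylases and other secreted acinar proteins, so this detection does not measure how pure the islets were. The NOD samples of mice 5 and 6 at 20 weeks were the dimmest of the series, with 42.3% and 47.7% of probes above background, and the 20-week mean ratios and calls of the 9 genes and of the gene lists are also given without them. The arrays lay on 6 slides, and 2 of the slides held mice of a pair of neighbouring ages.

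The probes are single 60-base sequences, and those of Prss2, Cela2a and Ctrl are printed because these genes belong to a family of related serine proteases whose transcripts could in principle share a probe. Capitals mark the longest run that a probe shares with the probe of another of the 9 genes, which is 11 bases between Prss2 and Cela2a and 8 bases between Ctrl and Prss2. Among all 10 probes the longest such run was 12 bases, between the second Cela1 probe and Cpa1. The Prss2 probe lies on the plus strand at chr6:41473937-41473996 and the Ctrl probe on the minus strand at chr8:108456495-108456554. The Cela2a probe is split over chr4:141377348-141377647 on the minus strand, where its 60 bases cover 300 bases of the chromosome. Coordinates are those of the array annotation, build mm9.
Prss2 probe: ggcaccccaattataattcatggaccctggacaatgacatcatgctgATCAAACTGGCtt
Cela2a probe: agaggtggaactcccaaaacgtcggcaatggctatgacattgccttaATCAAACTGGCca
Ctrl probe: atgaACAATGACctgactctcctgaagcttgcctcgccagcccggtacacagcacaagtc

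No probe of the 9 genes shared more than 14 consecutive bases with a probe of any other gene on the array. Probes were compared with probes only, not with whole transcripts, so whether a probe also reads a related transcript was not tested. All 10 probes were well above background in both channels on all 24 arrays, and 0 of their spots were saturated or flagged as an outlier. Raw brightness ran from 19210 to 318040 in the NOD channel and from 13895 to 286241 in the pool channel.

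Acinar genes are known targets of PTF1, a complex that includes Ptf1a and Rbpjl. It binds a bipartite site of an E-box (CACCTG is one form) and a TTTCCC box. Promoters were therefore searched for these letters on both strands, in the 250 bases before the start in the RefSeq promoter table (GRCm38.p6), which held 7 of the 9 genes (not Ctrc and Spink1). CACCTG was found in 5 of 7 promoters, against 17.2% of 32851 promoters in the table, and TTTCCC in 5 of 7, against 21.9%. Both were found anywhere in the 250 bases in 3 of 7, Prss2, Cela1 and Cela2a, against 3.61% of all promoters, and no 2 matches overlapped. The search set no distance between the 2 boxes, so a promoter with both need not hold a bipartite site. These 3 promoters are printed with the matches in capitals (CAGGTG and GGGAAA are the reverse-strand forms), and a match describes the letters, not binding. They lie at chr6:41521526-41521775 on the plus strand (Prss2), chr15:100687921-100688170 on the minus strand (Cela1) and chr4:141826006-141826255 on the minus strand (Cela2a).
Prss2 promoter: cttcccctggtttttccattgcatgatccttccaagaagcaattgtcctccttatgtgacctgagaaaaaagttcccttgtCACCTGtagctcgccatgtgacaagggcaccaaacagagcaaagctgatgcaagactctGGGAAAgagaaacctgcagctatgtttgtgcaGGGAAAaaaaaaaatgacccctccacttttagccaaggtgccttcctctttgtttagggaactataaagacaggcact
Cela1 promoter: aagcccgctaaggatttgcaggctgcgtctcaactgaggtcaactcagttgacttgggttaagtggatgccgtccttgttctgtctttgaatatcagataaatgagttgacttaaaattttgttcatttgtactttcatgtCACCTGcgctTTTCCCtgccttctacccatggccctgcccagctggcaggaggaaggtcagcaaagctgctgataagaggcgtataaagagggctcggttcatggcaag
Cela2a promoter: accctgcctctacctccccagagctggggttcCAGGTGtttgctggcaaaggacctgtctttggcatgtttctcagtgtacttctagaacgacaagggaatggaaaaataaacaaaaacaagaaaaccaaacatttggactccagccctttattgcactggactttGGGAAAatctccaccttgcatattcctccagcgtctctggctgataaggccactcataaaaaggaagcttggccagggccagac

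In Prss2 the E-box began 169 bases and the TTTCCC boxes 110 and 78 bases before the start. In Cela1 the matches began 109 and 99 bases before the start, the closest pair of the 3 genes, and in Cela2a 218 and 84 bases. Ctrl held CACCTG 149 and 93 bases before its start and Cpb1 94 bases before, while Ctrb1 held TTTCCC 195 bases and Cpa1 19 bases before.

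The clearest difference between NOD islets and the pool of their age lay at 4 weeks. All 9 genes were then higher in NOD islets, by 2.20-fold (Spink1) to 3.43-fold (Ctrc), and every gene was above the pool in 6 of 6 mice. At 10 days and at 20 weeks none of the 9 differed from the pool by the same test, and at 12 weeks only Spink1 did, lower in NOD islets. Between mice of 1 age the genes moved up and down together, over a 22.4-fold range at 20 weeks. Values below are log2 ratios of NOD over pool after loess normalization unless a channel level is named. A gene is called where the Benjamini-Hochberg adjusted p of limma's moderated test over all 18085 genes is under 0.05 and the mean differs by at least 2-fold.

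At 4 weeks the 9 of 9 genes called higher compare with 1.91% of all genes called higher. Of all genes, 21.1% were above 0 in all 6 mice. At 10 days 0 of 9 were called, with 3.98% of all genes called in either direction. At 12 weeks 1 of 9 was called lower, with 1.42% of all genes called lower. At 20 weeks 0 of 9 were called, with 5.10% of all genes called in either direction. From the youngest to the oldest age the median of the 9 genes was -0.09, 1.36, -0.22 and -0.14, and the median of all genes stayed between -0.007 and 0.027.

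**Figure D1:**
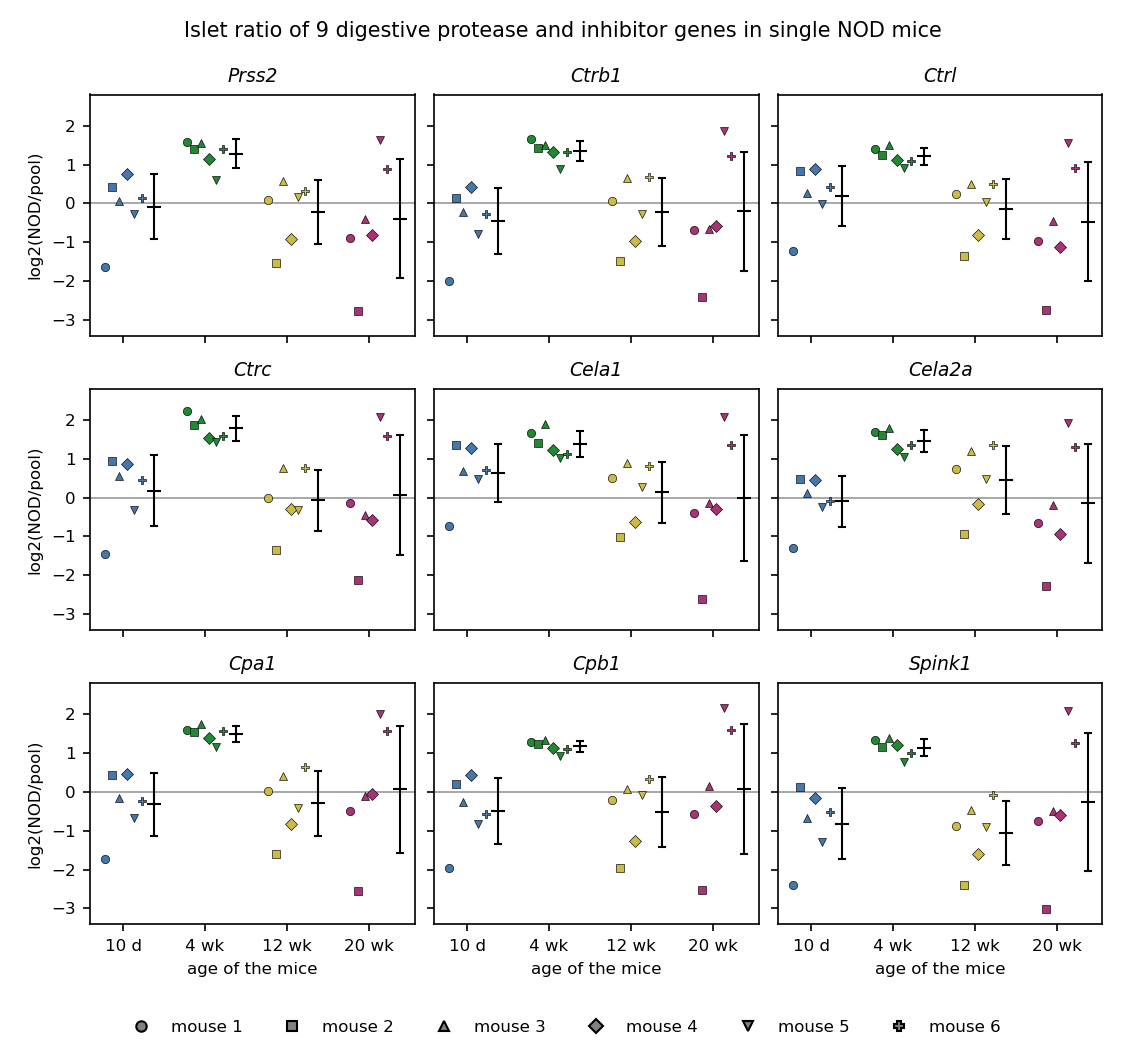
Each panel plots the log2 ratio of NOD over pool (vertical axis) of 1 gene in every mouse by age (horizontal axis), a symbol for each of the 6 mice of an age, with the mean and SD as a bar to the right. Every point at 4 weeks lies above 0, and the widest scatter is at 20 weeks.

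Prss2 encodes a trypsinogen, the zymogen whose active form cuts after lysine and arginine and switches on the other zymogens. At 4 weeks its lowest, median and highest ratios were 0.60, 1.41 and 1.58, with a mean of 1.28 ± 0.37 (SD, n = 6), 2.43-fold over the pool (adjusted p = 0.00707). At 10 days they were -1.64, 0.10 and 0.76, at 12 weeks -1.53, 0.12 and 0.57, and at 20 weeks -2.76, -0.61 and 1.62. Mice lay on both sides of the pool at these 3 ages, and the mean was not called at any of them (adjusted p = 0.865, 0.687 and 0.421).

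The 3 chymotrypsinogen genes encode enzymes that cut after large hydrophobic residues, and Ctrc encodes chymotrypsin C, which in humans also degrades trypsinogen. Ctrc had the highest 4-week mean of the 9 genes, with lowest, median and highest ratios of 1.44, 1.73 and 2.23 and a mean of 1.78 ± 0.31 (SD, n = 6), 3.43-fold over the pool (adjusted p = 0.000527). Ctrb1 ran from 0.89 through a median of 1.38 to 1.66, with a mean of 1.36 ± 0.26 (SD, n = 6; adjusted p = 0.005). Ctrl ran from 0.90 through 1.18 to 1.5, with a mean of 1.21 ± 0.22 (SD, n = 6; adjusted p = 0.00804). No NOD mouse of 4 weeks was at or below the pool for any of the 3 genes. At 10 days their medians were 0.50 for Ctrc, -0.25 for Ctrb1 and 0.35 for Ctrl, and mouse 1 was the lowest for each, at -1.44, -1.99 and -1.22. At 12 weeks the medians were -0.15, -0.10 and 0.14 in the same order of genes, with mouse 2 lowest in each. At 20 weeks the single mice spread from -2.12 to 2.08 for Ctrc, from -2.41 to 1.85 for Ctrb1 and from -2.74 to 1.55 for Ctrl. None of the 3 was called at 10 days, 12 weeks or 20 weeks (adjusted p between 0.304 and 0.908).

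Of the 2 elastase genes, Cela1 encodes an enzyme that cuts after small residues. At 4 weeks Cela1 ran from 1.01 through a median of 1.31 to 1.88, with a mean of 1.38 ± 0.33 (SD, n = 6), 2.61-fold over the pool (adjusted p = 0.00433). Cela2a ran from 1.04 through 1.48 to 1.80, with a mean of 1.46 ± 0.29 (SD, n = 6), 2.74-fold over the pool (adjusted p = 0.00213). All 6 mice were above the pool for both genes. At 10 days the lowest, median and highest ratios of Cela1 were -0.74, 0.70 and 1.35, with 5 of 6 mice above the pool, and its mean of 0.63 ± 0.76 (SD, n = 6) was not called (adjusted p = 0.176). Cela2a ran from -1.29 through 0.01 to 0.48 at that age. At 12 weeks the medians were 0.39 for Cela1 and 0.61 for Cela2a, with mice 2 and 4 below the pool for both. At 20 weeks the mice spread from -2.61 to 2.06 for Cela1 and from -2.28 to 1.92 for Cela2a, with 4 of 6 below the pool. The second Cela1 probe was likewise above the pool in all 6 mice of 4 weeks, from 1.26 to 1.86.

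The procarboxypeptidase genes encode enzymes that remove single residues from the carboxyl end, Cpa1 hydrophobic ones and Cpb1 basic ones. Both varied little between mice at 4 weeks. Cpa1 ran from 1.16 through a median of 1.55 to 1.74, with a mean of 1.49 ± 0.20 (SD, n = 6), 2.81-fold over the pool (adjusted p = 0.00278). Cpb1 ran from 0.93 through 1.18 to 1.33, with a mean of 1.16 ± 0.15 (SD, n = 6), 2.24-fold over the pool (adjusted p = 0.0191). The SD of Cpb1 at 4 weeks was the smallest among the 9 genes, and at 20 weeks it was 1.68. At 10 days their medians were -0.20 for Cpa1 and -0.42 for Cpb1, at 12 weeks -0.19 and -0.15, and at 20 weeks -0.08 and -0.11. Mice on both sides of the pool made up each of these 3 ages, and neither gene was called.

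Spink1 encodes the small protein that binds trypsin within the acinar cell, and it had the lowest mean of the 9 genes at 10 days, 4 weeks and 12 weeks. At 4 weeks it ran from 0.77 through a median of 1.17 to 1.39, with a mean of 1.14 ± 0.23 (SD, n = 6), 2.20-fold over the pool (adjusted p = 0.0266). At 12 weeks it ran from -2.40 through -0.90 to -0.09, with a mean of -1.06 ± 0.83 (SD, n = 6), 2.08-fold below the pool (adjusted p = 0.0496). All 6 mice were below the pool at 12 weeks, as were those of 20.1% of all genes. The 12-week call was lost without mouse 1, 2, 3, 4 or 5 (adjusted p between 0.0566 and 0.176), and the 4-week call without mouse 1, 2, 3 or 4 (adjusted p between 0.0515 and 0.064). The 12-week value was -0.93 in the deposited log ratios, not called, and 0.14 after median centring. At 10 days 5 of 6 mice were below the pool, from -2.39 through -0.59 to 0.11 (adjusted p = 0.107). At 20 weeks the range was -3.02 to 2.07.

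The ratios also differed between ages, which removes the dye effect of a probe but keeps any difference between the pools. The ratio at 4 weeks minus that at 10 days was called higher for 7 of 9 genes, with 5.15% of all genes called higher. The largest differences were 1.95 ± 0.59 for Spink1 (SE; adjusted p = 0.00838), 1.81 ± 0.55 for Cpa1 (SE; adjusted p = 0.00835) and 1.81 ± 0.54 for Ctrb1 (SE; adjusted p = 0.00756). Ctrl (1.02, adjusted p = 0.104) and Cela1 (0.75, adjusted p = 0.254) were not called. The 4-week mice lay entirely above the 10-day mice for 7 genes (not Prss2 and Cela1), an arrangement found in 12.4% of all genes. Without mouse 1 of 10 days, which was lowest for all 9 genes, 4 genes were called, and Prss2, Ctrc and Cpb1 were not (adjusted p between 0.0512 and 0.104). On the slide that held both ages, with 2 mice of each, all 9 differences were above 0, from 0.93 to 2.13, and 0 were called.

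The ratio at 12 weeks minus that at 4 weeks was called lower for 7 of 9 genes, with 3.07% of all genes called lower. It fell by 2.20 ± 0.59 for Spink1 (SE; adjusted p = 0.00558), by 1.85 ± 0.54 for Ctrc (SE; adjusted p = 0.00913) and by 1.79 ± 0.55 for Cpa1 (SE; adjusted p = 0.0127). Cela1 (-1.25, adjusted p = 0.0666) and Cela2a (-1.01, adjusted p = 0.121) were not called. The 12-week mice lay entirely below the 4-week mice for 8 genes (not Cela2a), an arrangement found in 10.4% of all genes. Without mouse 2 or mouse 4 of 12 weeks the count was 3. These contrasts share the 4-week arrays, and no slide held both ages of this one, so slide and age cannot be told apart in it.

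The later differences were not called after loess with all mice. The ratio at 20 weeks minus that at 12 weeks ran from -0.59 (Cela2a) to 0.80 (Spink1) with 0 of 9 called, beside 2.41% of all genes called in either direction. The ratio at 20 weeks minus that at 10 days ran from -0.67 (Ctrl) to 0.57 (Cpb1) with 0 of 9 called, beside 12.5% of all genes. Without the 2 dimmest samples of 20 weeks all 9 differences were below 0. At 20 minus 12 weeks they ran from -1.46 to -0.16, with 2 of 9 called lower beside 52 of all 18085 genes. At 20 weeks minus 10 days they ran from -1.52 to -0.33, with 3 of 9 called lower beside 713 of all genes. On the slide that held both later ages, with 2 mice of each, all 9 differences of 20 minus 12 weeks were below 0, from -2.38 to -1.34, with 0 called. That slide held mice 1 and 2 of 20 weeks, and mouse 2 had the lowest mean of the 9 genes at that age (-2.56). It also held mouse 6 of 12 weeks, the highest of its age (0.58). Mice 5 and 6 of 20 weeks lay on another slide, so this difference also depends on which mice shared the slide. A test over all 4 ages passed for 8 of 9 genes (adjusted p between 0.00873 and 0.0321; Cela1 0.085), as it did for 76.0% of all genes. After loess 4 weeks had the highest mean ratio in each of the 9 genes, while after median centring 12 weeks was highest for Ctrl, Cela1 and Cela2a. The contrasts of 12 weeks against 10 days and 20 weeks against 4 weeks were not tested.

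The levels of the 2 channels were also read one by one. At 4 weeks minus 10 days, the NOD channel was called higher for Cela1 alone, at 17.22 ± 0.12 in 4-week mice against 15.98 ± 0.53 in 10-day mice (SD, n = 6 each; log2 level; difference 1.25, adjusted p = 0.00558), with 1.88% of all genes called higher. The other 8 genes differed by -0.004 (Spink1) to 0.83 (Ctrl) in the NOD channel and were not called. In the pool channel, which gets no test because each age has 1 pool, 8 of 9 genes averaged lower on the 4-week arrays, by as much as 1.96 for Spink1 (14.77 at 4 weeks against 16.73 at 10 days). Cela1 was the exception, at 15.84 against 15.35. The Spink1 level in NOD islets was 15.91 at both ages.

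At 12 minus 4 weeks 0 of 9 genes were called in the NOD channel, with 5.23% of all genes called in either direction. All 9 differences were below 0, from -0.94 (Ctrb1) to -0.33 (Cela2a). Ctrb1 (adjusted p = 0.0219) and Ctrc (-0.86, adjusted p = 0.0245) passed on p but did not reach 2-fold. For 6 genes the NOD levels of the ages did not overlap, as was found lower in 8.05% of all genes. The pool channel averaged higher at 12 weeks than at 4 weeks for all 9 genes, by 0.47 (Cela1) to 1.57 (Spink1). At 20 minus 12 weeks (0.332% of all genes called) and 20 weeks minus 10 days (4.99%) the NOD channel gave 0 of 9.

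**Figure D2:**
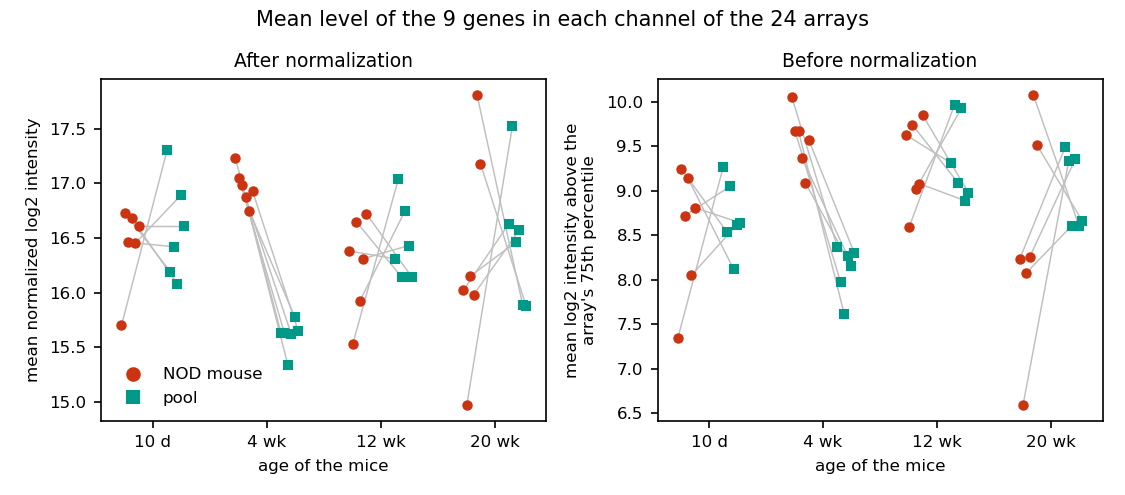
Points are the mean log2 level of the 9 genes on each array, NOD channel on the left and pool channel on the right of each age, joined by a line per array, after normalization (left panel) and before it as log2 intensity above the array's 75th percentile (right panel). At 4 weeks the NOD point is higher on all 6 arrays in both panels, and at the other ages the lines cross.

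The pool of an age carries the same label on its 6 arrays, yet its level for the 9 genes was not constant. The mean normalized level of the 9 genes in the pool channel spanned 1.22 at 10 days and 0.44 at 4 weeks, then 0.90 at 12 weeks and 1.64 at 20 weeks on the log2 scale, beside spans of 1.03, 0.48, 1.19 and 2.84 in the NOD channel. At each of the 4 ages the array with the lowest normalized NOD level had the highest normalized pool level. The normalization between arrays gives the mean of the 2 channels the same distribution on every array, so the 2 normalized levels are not independent. At 20 weeks mouse 2 of 20 weeks had 14.97 in the NOD channel and 17.52 in the pool channel, and mouse 5 had 17.81 and 15.89. Before normalization, as log2 intensity above the array's 75th percentile, the same arrays had 6.59 and 9.33 for mouse 2, and 10.08 and 8.61 for mouse 5. By this measure the lowest NOD level again went with the highest pool level at 10 days and 12 weeks. It did not at 4 weeks (mouse 5, pool 8.16 against 8.37 in mouse 1) or at 20 weeks (mouse 2, pool 9.33 against 9.49 in mouse 1). At 4 weeks this unnormalized level was higher in the NOD channel on all 6 arrays, 9.09 to 10.06 against 7.62 to 8.37 in the pool. Only 1 to 41 of the 25931 probes kept were brighter than a probe of these genes (a statement on spots, not on expression), so few other probes guide the loess curve there. The part of this in the ratios was not tested.

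The size of the ratios depended on the normalization. In the authors' deposited log ratios the 4-week values of the 9 genes ran from 0.70 to 1.09, all above 0, and 3 were called (Ctrc, Cela2a and Cpa1). Of all genes, 5.88% were called higher in those values. With each array centred on its median in place of loess the 9 genes ran from 0.94 to 1.63. Then 7 were called, beside 0.746% of all genes called higher. That centring moved the median of all genes to 0.38 at 10 days and -0.15 at 4 weeks, then 0.50 at 12 weeks and -0.21 at 20 weeks. Relative to that shift the 9 genes lay between 1.09 and 1.78 at 4 weeks, from -0.51 to 0.95 at 10 days, from -0.36 to 1.14 at 12 weeks and from -0.96 to -0.42 at 20 weeks. The 9 genes were thus above 0 at 4 weeks under all 3 normalizations, while at 12 weeks 2 of 9 were above 0 after loess, 4 of 9 in the deposited values and 9 of 9 after median centring.

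Median centring changed the differences between ages as well. The 4-week minus 10-day differences ran from -0.11 (Cela1) to 1.07 (Spink1) with 0 called, or from 0.49 to 1.67 relative to the shift of all genes. The 12-week minus 4-week differences ran from -0.80 to 0.39 with 0 called, or from -1.53 to -0.34 relative to that shift. In the deposited values they ran from 0.32 to 1.75 and from -1.68 to -0.36, with 7 genes called in the first and 2 in the second (Cpa1 and Spink1). Of 15724 genes in those values, 1812 were called higher in the first and 1558 lower in the second. The later differences lay further from 0 under median centring. At 20 minus 12 weeks they ran from -2.48 to -1.08 with 8 of 9 called lower, beside 7642 of all 18085 genes. At 20 weeks minus 10 days they ran from -2.05 to -0.80 with 5 of 9 called lower, beside 6624 of all genes. Relative to the shift of all genes they ran from -1.70 to -0.30 and from -1.41 to -0.16.

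**Figure D3:**
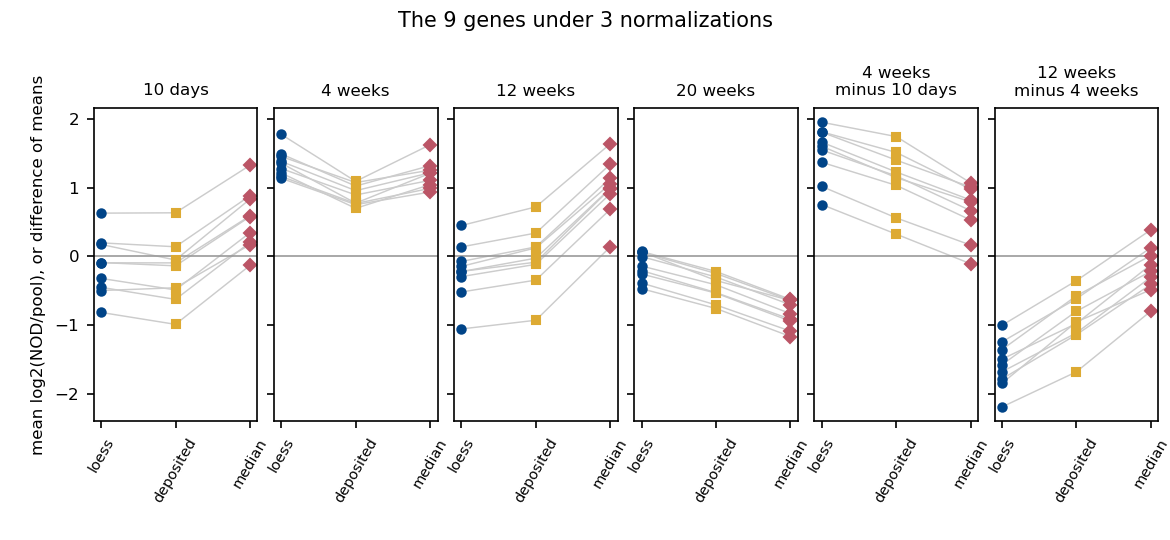
Each grey line joins the mean log2 ratio, or difference of means, of 1 of the 9 genes under loess, in the deposited values and after median centring. The 4-week values stay above 0 in all 3, the 12-week values lie higher after median centring, and the 4-week minus 10-day and 12-week minus 4-week differences lie nearer to 0 or across it.

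The 9 genes varied together from mouse to mouse. Over the 24 arrays the Pearson correlation of log2 ratios between members ran from 0.898 to 0.988 in 36 pairs, and from 0.951 to 0.990 for deviations from the age means, which share arrays, pool and normalization. The mean of the 9 genes per mouse ran from -1.60 to 0.60 at 10 days, from 0.97 to 1.64 at 4 weeks, from -1.51 to 0.58 at 12 weeks and from -2.56 to 1.92 at 20 weeks. These ranges correspond to 4.58-fold, 1.59-fold, 4.28-fold and 22.4-fold between the mice of an age. The smallest SD among the 9 genes exceeded that of 95.42% of all genes at 10 days and 41.88% at 4 weeks, then 99.49% at 12 weeks and 99.55% at 20 weeks. The test pools the spread over ages, so the SE of an age mean was 0.36 to 0.42 at every age, although the SD lay between 0.15 and 0.37 at 4 weeks and between 1.53 and 1.78 at 20 weeks.

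At 20 weeks the mice separated by member level in every gene. Mice 5 and 6 had all 9 genes above the pool, with means of 1.92 and 1.29. Mice 1, 2 and 4 had all 9 below, at -0.61, -2.56 and -0.59, and mouse 3 had 8 of 9 below, at -0.31. Mice 5 and 6 are the samples with the fewest probes above background, and their beta cell list means were -3.18 and -1.65, against -1.23 to -0.72 in the other 4 mice. Without these 2 samples, a choice made after the values were seen, 5 genes were called lower at 20 weeks (Prss2, Ctrb1, Ctrl, Cela2a and Spink1), beside 0.564% of all genes. The 9 means then ran from -1.32 to -0.81. As the 2 mice left out are those with all 9 genes above the pool, lower means follow from the choice itself. The same holds for the lists of other acinar genes, whose means at 20 weeks were also highest in these 2 mice.

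The offset of single genes from the mean of the other 8 is given as a description, with no test. Spink1 was below the mean of the other 8 genes on 23 of 24 arrays and was the lowest of the 9 on 14. Its difference from the other 8 averaged -0.76 ± 0.18 at 10 days and -0.25 ± 0.10 at 4 weeks, then -0.95 ± 0.13 at 12 weeks and -0.13 ± 0.23 at 20 weeks (SD, n = 6 each). The mice ran from -0.94 to -0.49 at 10 days, from -0.33 to -0.07 at 4 weeks and from -1.10 to -0.75 at 12 weeks. Cela1 was 0.87 ± 0.12 above the other 8 at 10 days, with a range of 0.73 to 1.03, and 0.40 ± 0.13 at 12 weeks. Cela2a was 0.75 ± 0.07 above the others at 12 weeks, from 0.65 to 0.86, and 0.10 ± 0.07 above them at 4 weeks. Ctrc was 0.47 ± 0.14 above the others at 4 weeks. Each offset holds a probe's constant dye effect.

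**Figure D4:**
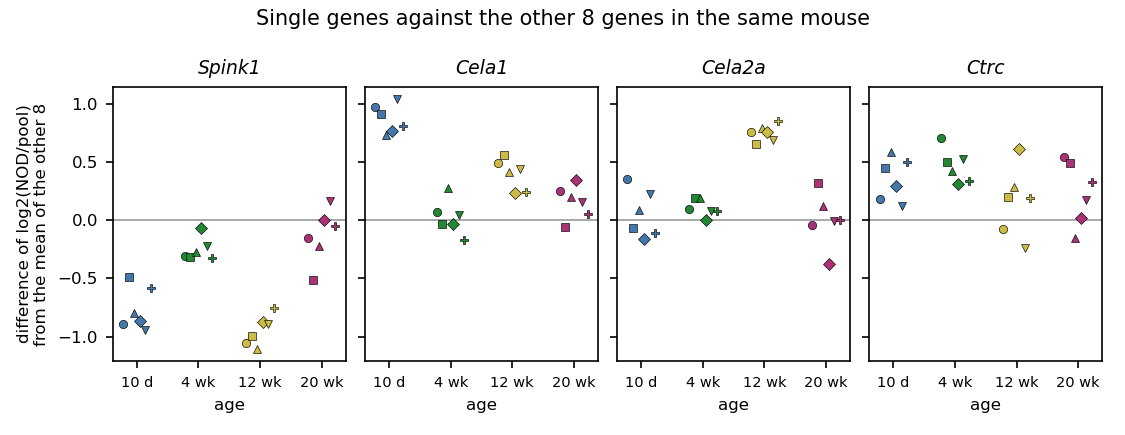
Points give, for each mouse, the log2 ratio of 1 gene minus the mean of the other 8 (vertical axis) by age, with mouse symbols as in the plot of ratios. Spink1 lies lowest at 10 days and 12 weeks, Cela1 is highest at 10 days and Cela2a at 12 weeks.

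Other acinar genes were read from lists for comparison. Of 9 other pancreatic digestive protease genes listed, 4 were measured, and all 4 were higher in NOD islets at 4 weeks. They were the trypsinogen genes Try5 (1.41) and Prss3 (1.24), the kallikrein gene Klk1 (1.23) and the elastase gene Cela3b (1.17). Median centring called the same 4, and in the deposited values only Klk1 (1.03) was called, with Try5 at 0.94, Prss3 at 0.82 and Cela3b at 0.61. All genes called higher at 4 weeks made up 0.746% after median centring and 5.88% in the deposited values. At 10 days, where 2.36% of all genes were called lower, Prss3 was lower in NOD islets (-1.18 ± 0.69, SD, n = 6; adjusted p = 0.021). It was also called in the deposited values, but after median centring it was at -0.52 and was not called (adjusted p = 0.246). At 12 weeks and 20 weeks 0 of 4 were called. Median centring gave Klk1 higher at 12 weeks, beside 23.5% of all genes called higher. It gave Cela3b lower at 20 weeks, beside 7.59% of all genes called lower. Without the 2 dimmest samples 3 of 4 were called lower at 20 weeks, beside 0.564% of all genes. They were Cela3b at -1.32, Prss3 at -1.13 and Try5 at -1.06.

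Of 17 measured genes for lipases, amylases and other secreted acinar proteins, 15 were higher in NOD islets at 4 weeks. The lipase-related genes Pnliprp1 (2.06) and Pnliprp2 (1.98), the amylase gene Amy2a5 (1.82) and the lipase gene Pnlip (1.74) had the largest ratios, above the 1.78 of Ctrc for the first 3. At 10 days, where 1.61% of all genes were called higher, Amy2a5 (1.49, adjusted p = 0.00331) and Pnlip (1.44, adjusted p = 0.00433) were called higher. The list median was 1.54 at 4 weeks and between 0.06 and 0.16 at the other ages, where 0 of 17 were called at 12 and 20 weeks. At 4 weeks 13 of 17 were called higher in the deposited values and 10 after median centring, and at 12 weeks 1 and 14 of 17. All genes called higher at 12 weeks made up 10.2% in the deposited values and 23.5% after median centring. Without the 2 dimmest samples 4 of 17 were called lower at 20 weeks, beside 0.564% of all genes.

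Acinar transcription factors and receptors made up a further list. At 4 weeks 5 of 8 were higher. Among them were Ptf1a, a DNA-binding subunit of PTF1, at 1.72 (adjusted p = 0.000406) and the cholecystokinin receptor Cckar at 1.34. The water channel Aqp12 was at 1.20 and the nuclear receptor Nr5a2 at 1.08. At 10 days 4 of 8 were lower: Rbpjl, the partner of Ptf1a, at -1.75 (adjusted p = 0.00116), the water channel Aqp8 at -1.41, Nr5a2 at -1.26 and Bhlha15, a factor for granule storage, at -1.23. All 6 mice of 10 days were below 0 for the mean of this list (-2.0 to -0.46). The deposited values kept all of these calls. After median centring only Rbpjl (-1.02) stayed called at 10 days, with Aqp8 at -0.65, Nr5a2 at -0.53 and Bhlha15 at -0.47, and only Ptf1a (1.36) at 4 weeks. At 12 and 20 weeks 0 of 8 were called. Median centring gave 4 of 8 higher at 12 weeks, beside 23.5% of all genes called higher. It gave Rbpjl lower at 20 weeks, beside 7.59% of all genes called lower. Without the 2 dimmest samples Rbpjl (-1.38) and Aqp8 (-1.22) were called lower at 20 weeks, beside 0.564% of all genes.

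Genes for trypsin activation and inhibition outside the 9 formed the last acinar list. At 4 weeks 1 of 11 measured was called, Serpini2, a serpin that acinar cells secrete and that stands in the list of secreted proteins too, at 1.03 (adjusted p = 0.0396). Its call was lost in the deposited values (0.74) and after median centring (0.80), and without the 2 dimmest samples Serpini2 was called lower at 20 weeks (-1.08). Tmprss15, which encodes enteropeptidase, was at 0.09 and was not called. Ctsb, a lysosomal protease that can activate trypsinogen, was at 0.19 (adjusted p = 0.0185) and, short of 2-fold, was not called either. Serpina1b and Serpina1c encode forms of alpha-1 antitrypsin, a circulating inhibitor of serine proteases. Serpina1b was higher in NOD islets at 12 weeks (1.02) and 20 weeks (2.06), and Serpina1c likewise (1.28 and 2.27), the 2 of 11 called at each of these ages. In the deposited values the ratios were larger, 3.05 and 3.77 for Serpina1b and 2.73 and 3.46 for Serpina1c. Both were also called at 20 weeks without the 2 dimmest samples. Their sequences are near copies, so their probes may read each other's transcripts.

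Markers of other cells moved with age as well. For the mean of 10 beta cell markers the lowest, median and highest mouse were 0.36, 1.21 and 1.70 at 10 days, -1.33, -0.94 and -0.66 at 4 weeks, -1.39, -0.69 and -0.13 at 12 weeks and -3.18, -1.01 and -0.72 at 20 weeks. Of these 10 genes 6 were called higher at 10 days, and 4, 4 and 10 were called lower at the later ages. All genes called lower at 4 weeks made up 0.879%, and those at 20 weeks 1.23%. The 12-week beta cell calls depended on the normalization. Median centring gave 0 of 10 called (list median 0.26), and the deposited values gave 2 lower, beside 6.63% of all genes. Both settings called 6 of 10 lower at 4 weeks and 10 of 10 at 20 weeks. Without the 2 dimmest samples 2 of 10 beta cell markers were called lower at 20 weeks, beside 0.564% of all genes. For 10 duct cell markers the mean lay between 0.05 and 0.73 at 4 weeks with 2 called higher, and between -1.09 and -0.72 at 12 weeks with 3 called lower. Median centring gave 0 of 10 duct markers called at 12 weeks (list median 0.15). The deposited values gave 5 lower at that age, beside 6.63% of all genes. T cell markers were called higher in 7 of 8 genes at 12 weeks (2.09% of all genes) and 8 of 8 at 20 weeks (3.87% of all genes), and in 0 and 1 of 8 at 10 days and 4 weeks. The 20-week count was again 8 of 8 without the 2 dimmest samples. No list had markers at 0, since array levels have no zero. In all 6 NOD mice of an age, 5 of 8 T cell markers were well above background at 10 days and 2 of 8 at 4 weeks. At 12 and 20 weeks 8 of 8 were, so the uncalled T cell ratios of the 2 young ages include dim probes. The part of these cells in the ratios of the 9 genes was not tested.

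Across the 24 arrays the deviation of each list mean from its age mean was set beside that of the 9 genes, as a description over arrays that share pools and normalization. The correlation was 0.998 for the other proteases, 0.999 for the secreted acinar proteins, 0.964 for the acinar factors and receptors, 0.730 for duct markers and 0.473 for the trypsin activation and inhibition list. It was -0.711 for beta cell, -0.617 for other endocrine cell and -0.534 for T cell markers.

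**Figure D5:**
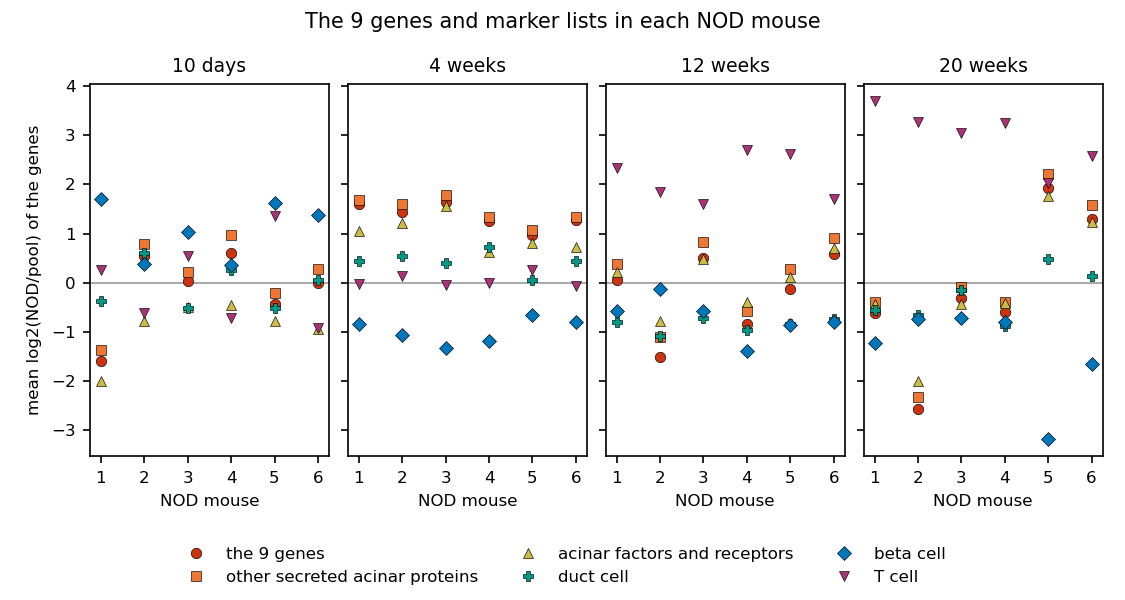
Points give, for each NOD mouse (horizontal axis, 1 panel per age), the mean log2 ratio of NOD over pool for the 9 genes and for 5 lists. The 9 genes and the other secreted acinar proteins lie close together in every mouse, and the beta cell list is lowest in mouse 5 of 20 weeks, where the 9 genes are highest.

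Among 14434 other named genes, those whose ratio over the 24 arrays was most like the mean of the 9 were Cela3b (r = 0.994), the colipase gene Clps (0.993), Pnliprp1 (0.989), Ncoa3 (0.987), Harbi1 (0.986) and Pnliprp2 (0.985). Ncoa3 had mean ratios of 0.25, 1.69, 0.09 and 0.22 at 10 days, 4, 12 and 20 weeks, and Harbi1 of -0.28, 1.49, -0.39 and -0.15. For deviations from the age means the highest were Clps (0.995), Aqp12 and Try5 (both 0.993), Cela3b, Cuzd1 and Pnlip (all 0.992). The lowest were Jak1 (-0.905), Dpf2 (-0.899), Lgmn (-0.896) and Mboat7 (-0.878), whose age means lay between -0.43 and 0.65.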

How the data were processed

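Islet RNA of 24 NOD mice was measured on Agilent 2-colour arrays (design 014868). Per the file headers, the authors' scanner output came from Feature Extraction 10.7.3.1 with annotation build mm9. Per the file headers, the software wrote the mean intensity of each spot and its local background per channel, as deposited by the authors. Per the file headers, it also wrote a log10 ratio of red over green from signals it had background-subtracted and dye-normalized by lowess. A separate table deposited by the authors gives log2 ratios for each probe, not centred by gene; it matched the scanner's log ratio on each array with slope 1, so its direction was taken as NOD over pool. How the authors made it is not given in the sources used here.

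From the intensities, background was corrected with normexp (offset 50), each array normalized by loess without control spots, outlier spots left out, and probes kept that were well above background in either channel on at least 6 arrays (25931 of 41174). A gene was represented by its brightest probe. Symbols were updated through RefSeq: 27050 probes matched by accession, 4154 by symbol and 589 by older symbol, and 9381 kept the name in the file. Log2 ratios were fitted with limma 3.58.1 in R 4.3.3 (a mean per age, all 24 arrays, empirical Bayes), with Benjamini-Hochberg adjustment over 18085 genes. Channel levels were taken after loess within and Aquantile between arrays. The fit was also run on simulated data, in which 58% of 2-fold and 98% of 3-fold changes at 4 weeks were called. Those data had independent genes and the same spread at every age. The 9 genes varied together and with a spread that differed between ages, so the run does not test the fit under these conditions. The number of arrays, 6 per age, limits the precision. Named genes outside the 9 were those with the largest absolute change in a list among genes called, at most 4 per list and comparison, plus 6 fixed markers (Ins1, Gcg, Krt19, Tmprss15, Ctsb and Serpini2), and the genes most and least correlated with the 9. The 9 genes, the lists and the tests were chosen with earlier results of these data known, and 1 acinar gene is not reported here. Alternatives were other background corrections, normalizations and filters, the slide and the replicate number as blocks, the deposited table, and each mouse left out.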

Additional observations from a re-analysis of the deposited data

Results flagged for a closer look

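The differences between ages set apart for a closer look are those in which the NOD over pool ratio of a gene differed between neighbouring ages by the test of the difference itself (limma, adjusted over all genes). At 4 weeks minus 10 days they were 1.37 for Prss2, 1.81 for Ctrb1, 1.60 for Ctrc, 1.55 for Cela2a, 1.81 for Cpa1, 1.66 for Cpb1 and 1.95 for Spink1. At 12 weeks minus 4 weeks they were -1.50 for Prss2, -1.58 for Ctrb1, -1.36 for Ctrl, -1.85 for Ctrc, -1.79 for Cpa1, -1.68 for Cpb1 and -2.20 for Spink1. The 4-week arrays enter both sets. None of the 9 genes had a mouse that stood apart from the other 5 of its age by Dixon's criterion.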

How the results depend on the processing

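At 4 weeks all 9 genes stayed above the pool in every setting. With the scanner software's processed signals 3 were called, beside 1215 of all genes called higher. In the deposited values 3 were called, beside 5.88% of all genes called higher. At 12 weeks the 1 call (Spink1) became 0 under plain background subtraction, scanner signals, no filter on dim probes, the mean of a gene's probes, the replicate block and the deposited values, and 4 genes were called higher under median centring. Median centring also gave 1 call at 10 days, 2 at 20 weeks, 0 at 4 weeks minus 10 days, 0 at 12 minus 4 weeks, 8 at 20 minus 12 weeks and 5 at 20 weeks minus 10 days. In that setting 14.9% of all genes were called higher at 10 days and 23.5% higher at 12 weeks. At 20 weeks 7.59% were called lower. Counting only sign changes with a call under loess or median centring, the latter turned Ctrl (1.056), Ctrc (1.139), Spink1 (0.138), Klk1 (1.06) and Ins1 (0.162) at 12 weeks. At 12 minus 4 weeks it turned Ctrl (0.011), and at 20 minus 12 weeks Ctrb1 (-1.908), Ctrc (-1.784), Cpa1 (-1.555) and Cpb1 (-1.315). Without a call, Prss2 (0.986), Ctrb1 (0.991), Cpa1 (0.912) and Cpb1 (0.686) also turned sign at 12 weeks. Within the shared slide 4 weeks minus 10 days gave 0 calls, with fewer mice. Scanner signals and deposited values each gave 2 calls at 12 minus 4 weeks and 1 at 20 minus 12 weeks. Of all genes, 1750 and 1558 were called lower at 12 minus 4 weeks in these settings. At 20 minus 12 weeks 1668 and 1211 were. Without the 2 dimmest samples there were 5 calls at 20 weeks, 2 at 20 minus 12 weeks and 3 at 20 weeks minus 10 days. Apart from the construction of these settings, the cause was not tested.

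Leaving out each mouse in turn gave 8 to 9 calls at 4 weeks, 0 to 1 at 12 weeks, 4 to 7 at 4 weeks minus 10 days (4 without 10-day mouse 1), 3 to 7 at 12 minus 4 weeks (3 without 12-week mouse 2 or 4), 0 to 1 at 20 minus 12 weeks (Spink1, without 20-week mouse 2), 0 to 1 in the NOD channel at 12 minus 4 weeks, and 4 to 9 genes that differed among ages (4 without 4-week mouse 1, 2 or 3). A sign change between values that both missed the threshold was not counted as a reversal; there were 131 in other settings over all named genes, and 92 with a mouse left out over the 9 genes. Replicate numbers did not pair the mice: 11 of 36 pairs of same-numbered mice correlated above 0.1, from -0.42 to 0.63. Slide as a random block had a correlation of -0.092. The scan date was not run as a block, since all arrays shared 1 day.

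Counts over all genes moved by more than 1.5 times. The 719 called at 10 days became 1597 under plain subtraction, 2906 with scanner signals, 2755 under median centring and 2437 in the deposited values, with 40.6%, 44.1%, 55.4%, 98.1% and 54.2% of them higher. At 4 weeks, in the same order of settings, 504 became 1342, 2123, 780 and 1550 (68.5%, 66.9%, 57.2%, 17.3% and 59.7% higher), and at 12 weeks 635 became 2819, 3252, 4289 and 2648 (59.5%, 68.4%, 64.3%, 99.3% and 60.6%). At 20 weeks 922 became 2334, 3003, 1825 and 2344 (75.8%, 60.7%, 49.7%, 24.8% and 48.4%). At 4 weeks minus 10 days 1628 became 3155, 4551, 5905 and 3761 (57.2%, 54.5%, 45.9%, 1.9% and 48.2%), at 12 minus 4 weeks 1094 became 3698, 4357, 7102 and 3539 (49.2%, 59.1%, 59.8%, 99.6% and 56%), and at 20 minus 12 weeks 436 became 2035, 2550, 7665 and 1990 (83.3%, 43.8%, 34.6%, 0.3% and 39.1%). At 20 weeks minus 10 days 2266 became 4464, 5698, 7069 and 4684 (61.7%, 53.5%, 44.2%, 6.3% and 45%). In the NOD channel 60 genes at 20 minus 12 weeks became 13 with 75th percentile scaling, a setting chosen after the data were seen, and 24 to 100 with a mouse left out, past 1.5 times in 5 of 12 cases (without 12-week mouse 3 or without 20-week mouse 1, 2, 3 or 5).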

Other observations

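Markers of stellate cells and fibroblasts were called lower in NOD islets in 6 of 7 genes at 10 days, with list means per mouse between -2.63 and -0.88, beside 2.36% of all genes called lower. At 4 weeks 0 of 7 were called. At 12 weeks 2 were called higher, beside 2.09% of all genes, and at 20 weeks 4, beside 3.87%. Markers of B cells were called lower in 3 of 6 genes at 10 days and higher in 5 of 6 at both 12 and 20 weeks. Of these 6 markers, 4 were well above background in all NOD mice at 10 days and 1 at 4 weeks. Markers of macrophages and dendritic cells were called lower in 1 of 7 genes at 10 days and higher in 3 of 7 at 12 weeks and 5 of 7 at 20 weeks. Endothelial markers were called lower in 2 of 6 genes at 10 days and in 1 of 6 at 4 weeks, beside 0.879% of all genes called lower at 4 weeks. Without the 2 dimmest samples of 20 weeks, 5 of 7 stellate cell and fibroblast, 5 of 6 B cell and 7 of 7 macrophage and dendritic cell markers were called higher at that age. Under median centring 4 of 7 stellate cell and fibroblast markers were called lower at 10 days. At 12 weeks 6 of 7 were then called higher, beside 23.5% of all genes, and at 20 weeks 0 of 7 were called. The same setting called 0 of 6 B cell markers at 10 days.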
